A study of Mus musculus with 4 samples.

Results

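The genes of the proteasome, the protease complex that degrades ubiquitin-tagged proteins, were followed in RNA-seq libraries of mouse mammary tumor cells. They were chosen by name: every row of the deposited expression table whose symbol begins with Psm, then a letter from a to g and a number. The rule found 50 of 24043 rows, which cover the core particle, its immune variants, the regulatory cap, the activators, an inhibitor and the assembly chaperones. It also caught Psmc3ip, which encodes a partner protein of meiotic recombination and is not a subunit, and Psme2b, a near copy of Psme2. The immune subunits Psmb8, Psmb9, Psmb10, Psme1 and Psme2 (5 genes) were compared with the other 45 rows.

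The study compared 2 libraries titled Lsd1 knockout with 2 titled Lsd1 wild-type (WT). All came from female MMTV-PyMT mice, in which polyoma middle T antigen drives mammary tumors, and all mice carried the R26Y reporter, a Rosa26 yellow fluorescent protein gene behind a stop cassette. Adenovirus Ad-K8-Cre, which expresses Cre under the Krt8 promoter of luminal cells, was injected into the ducts of both groups, and YFP+ cells were sorted 2 to 3 months later, so the WT cells had been exposed to Cre as well. The experimental mice carried conditional Lsd1L/L alleles and the controls were Lsd1+/+, per the series' design text. For the libraries titled knockout, the genotype label says knockout but the tissue label gives Lsd1+/+, so they are called the libraries labelled knockout (KO). The labels do not say whether the libraries came from separate animals, so the p-values cover no more than the spread between the libraries at hand, which may be technical.

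Levels of the targeted gene and of cell type markers differed between libraries of 1 group as well as between groups. Kdm1a, which encodes LSD1 (a histone demethylase), was at 20.2 and 22.8 FPKM in the KO libraries and at 52.5 and 22.9 FPKM in the WT libraries, a difference of -0.67 on the log2(FPKM + 1) scale (SE 0.46; limma, adjusted p = 0.34). FPKM is a level scaled to transcript length and library size, and log2 differences here are KO minus WT. The KO pair had a correlation across genes of 0.98 and the WT pair of 0.85. Of 12 lymphocyte markers 11 rose (91.7%, against 9.51% of all genes tested) and none fell (6.99% of all genes did). The 12 summed to 1873 and 1762 FPKM in KO and to 16.8 and 73.6 FPKM in WT. The 9 luminal epithelial markers summed to 733 and 750 FPKM in KO and to 12232 and 2709 FPKM in WT, and the 8 macrophage markers to 1086 and 1011 FPKM in KO and to 404 and 13690 FPKM in WT. No marker of these 3 lists was at 0 in any library. In such bulk samples, fewer cells of a type and less RNA per cell cannot be told apart.

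The core particle of the proteasome is a barrel of outer alpha rings and inner beta rings. Of the beta subunits, Psmb5, Psmb6 and Psmb7 carry the protease sites, with chymotrypsin-like, caspase-like and trypsin-like activity. Interferon-gamma induces the alternative subunits Psmb8, Psmb9 and Psmb10, which take the places of Psmb5, Psmb6 and Psmb7 in newly built particles and shift the peptides made towards those that MHC class I molecules bind. Lymphocytes and other blood cells contain this immunoproteasome without induction. The activator PA28, built from Psme1 and Psme2, is induced by the same cytokine and opens the barrel without ATP, whereas the regulatory cap of Psmc ATPases and Psmd subunits recognizes ubiquitin and unfolds the substrate.

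Among the immune catalytic subunits, Psmb8 rose in the libraries labelled knockout. Psmb8 was at 301 and 293 FPKM in KO and at 138 and 164 FPKM in WT, a change of 0.97 (SE 0.16; limma, adjusted p = 0.038). The groups did not overlap, and both KO libraries lay near each other. Psmb9 was at 140 and 145 FPKM in KO and at 37.9 and 96.3 FPKM in WT, a difference of 1.22 (SE 0.50; limma, adjusted p = 0.16; 95% interval -0.18 to 2.62). Both KO libraries were above both WT libraries, but the WT libraries differed 2.55-fold from each other and the difference did not pass. It was 0.56 without the first WT library and 1.88 without the second. Psmb10 was at 58.9 and 65.6 FPKM in KO and at 32.5 and 64.4 FPKM in WT, a difference of 0.43 (SE 0.39; limma, adjusted p = 0.45; 95% interval -0.65 to 1.52). The second WT library lay between the KO libraries, and without the first WT library the difference was -0.050. Leaving out 1 library in turn, the difference of Psmb8 ran from 0.85 to 1.10. Fits with 1 KO library take their spread from the WT pair alone and passed 0 of 11138 genes, so they cannot test any call.

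Of the constitutive catalytic subunits, Psmb6 fell. Psmb6 was at 146 and 151 FPKM in KO and at 304 and 260 FPKM in WT, a change of -0.91 (SE 0.16; limma, adjusted p = 0.041), and the groups did not overlap. Leaving out 1 library in turn, the difference ran from -1.03 to -0.80. The call was lost after scaling all libraries to 1 common total (limma, adjusted p = 0.068), where the difference was -0.83. Both calls, Psmb8 and Psmb6, were also lost without a filter on low values and with an untrended, not robust prior. Psmb7 was at 58.5 and 58.3 FPKM in KO and at 123 and 86.4 FPKM in WT, a difference of -0.81 (SE 0.24; limma, adjusted p = 0.092; 95% interval -1.48 to -0.14). It did not pass the threshold over all genes, although both KO libraries lay below both WT libraries. Psmb5 was at 102 and 113 FPKM in KO and at 149 and 102 FPKM in WT, a difference of -0.20 (SE 0.25; limma, adjusted p = 0.59; 95% interval -0.90 to 0.50). Here the groups overlapped, with only the first WT library standing higher, and without it the difference was 0.074.

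The promoters of Psmb8 and Psmb6 are shown because these were the members past the threshold, that of Psmb5 because it encodes the subunit Psmb8 replaces, and that of Psme1 as the PA28 gene with a motif match. The windows are RefSeq's on GRCm38.p6, from 250 bases before to 50 after the annotated start, on the strand of the gene: chr17:34197945-34198244 (plus) for Psmb8, chr14:55578244-55578543 (plus) for Psme1, chr11:70525107-70525406 (plus) for Psmb6 and chr14:54617946-54618245 (minus) for Psmb5. Capitals mark a match to a GAS element, the interferon-gamma activated site (TTCNNNGAA), in Psmb8. In Psme1 they mark an ISRE, the site of interferon regulatory factors (GAAA, any 2 bases, GAAA, found here as its reverse complement), and in Psmb6 and Psmb5 an antioxidant response element core, the site of Nfe2l1 and Nfe2l2 (TGACNNNGC).

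Psmb8: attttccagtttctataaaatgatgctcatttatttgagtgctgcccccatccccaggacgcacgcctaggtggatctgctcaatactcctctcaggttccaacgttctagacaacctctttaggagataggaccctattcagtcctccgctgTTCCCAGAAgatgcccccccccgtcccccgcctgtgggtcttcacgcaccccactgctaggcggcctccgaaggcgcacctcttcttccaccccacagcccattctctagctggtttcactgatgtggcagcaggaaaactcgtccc

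Psme1: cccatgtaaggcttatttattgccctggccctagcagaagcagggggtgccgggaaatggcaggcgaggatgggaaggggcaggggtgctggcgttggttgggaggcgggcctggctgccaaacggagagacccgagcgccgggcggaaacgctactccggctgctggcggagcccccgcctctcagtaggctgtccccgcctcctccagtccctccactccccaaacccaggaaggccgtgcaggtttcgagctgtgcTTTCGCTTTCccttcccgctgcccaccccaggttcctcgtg

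Psmb6: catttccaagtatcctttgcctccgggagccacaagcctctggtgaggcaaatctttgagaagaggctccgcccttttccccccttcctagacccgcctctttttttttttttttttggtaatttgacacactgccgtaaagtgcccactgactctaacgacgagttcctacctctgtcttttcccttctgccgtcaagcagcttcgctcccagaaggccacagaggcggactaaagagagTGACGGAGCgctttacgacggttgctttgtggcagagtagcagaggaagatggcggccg

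Psmb5: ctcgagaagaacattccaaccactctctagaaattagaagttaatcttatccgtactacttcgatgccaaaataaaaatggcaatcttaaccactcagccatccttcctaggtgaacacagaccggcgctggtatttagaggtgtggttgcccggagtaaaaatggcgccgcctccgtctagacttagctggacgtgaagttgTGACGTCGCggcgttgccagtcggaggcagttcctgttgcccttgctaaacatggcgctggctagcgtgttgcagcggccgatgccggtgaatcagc

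The match began 97 bases before the start in Psmb8, 9 bases after it in Psme1, and 9 and 47 bases before it in Psmb6 and Psmb5. The motifs were searched on both strands, do not overlap one another in these windows, and are short enough to occur widely. Of 42 members with a window, 3 (7.14%) held the GAS letters (Psmb8, Psmd2 and Psmg1), against 8.3% of all 32851 windows. The ISRE letters stood in 5 (11.9%: Psme1, Psmb3, Psmd4, Psmd9 and Psmg4), against 3.44% of all windows. The antioxidant element letters stood in 6 (14.3%: Psmb5, Psmb6, Psmc6, Psmd9, Psmd12 and Psme4), against 12.4%. Members were counted by gene (42 with 45 windows) and the whole set by window, so the shares are not strictly alike. No match to the 3 motifs was found for Psmb9, Psmb10 or Psme2, which would also hold for a gene without a window. A match is a run of letters and not a measured binding site, and 8 members had no window in the table.

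Set against the subunit it replaces, each immune catalytic subunit made up a larger share in both KO libraries than in either WT library. Psmb8 was 74.6 and 72.2% of the Psmb8 and Psmb5 total in KO and 48.1 and 61.7% in WT. Psmb9 was 48.8 and 48.9% of the Psmb9 and Psmb6 total in KO and 11.1 and 27.1% in WT. Psmb10 was 50.2 and 52.9% of the Psmb10 and Psmb7 total in KO and 20.9 and 42.7% in WT. In all 3 pairs the first WT library had the lowest share and the second stood between it and the KO libraries.

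As log2 ratios of FPKM + 1, the means were 1.46 ± 0.13 in KO and 0.29 ± 0.56 in WT for Psmb8 over Psmb5 (SD, n = 2 each), a difference of 1.17. For Psmb9 over Psmb6 they were -0.065 ± 0.0028 in KO and -2.20 ± 1.10 in WT, a difference of 2.13. For Psmb10 over Psmb7 they were 0.088 ± 0.11 in KO and -1.16 ± 1.04 in WT, a difference of 1.24. An exact two-sided permutation test over libraries gave p = 0.33 for each of the 3 ratios (0.33 after Benjamini-Hochberg adjustment), which is the smallest p that 2 against 2 libraries allow. Without the first WT library the differences were 0.78, 1.36 and 0.51, and without the second they were 1.57, 2.91 and 1.98.

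In FPKM as deposited, the summed level of the 6 catalytic genes varied little between libraries, and its make-up differed. The sum was 807 and 826 FPKM in KO and 785 and 773 FPKM in WT. These sums were not scaled to a common total. The FPKM of all genes totalled 449838 in the second WT library and 401786 to 402946 in the others. The immune genes were 61.9 and 61.0% of it in KO and 26.5 and 42.1% in WT. The immune sum was 499 and 503 FPKM in KO and 208 and 325 FPKM in WT, and the constitutive sum 307 and 322 FPKM in KO and 577 and 448 FPKM in WT. These are RNA levels, and assembled particles were not measured.

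**Figure D1:**
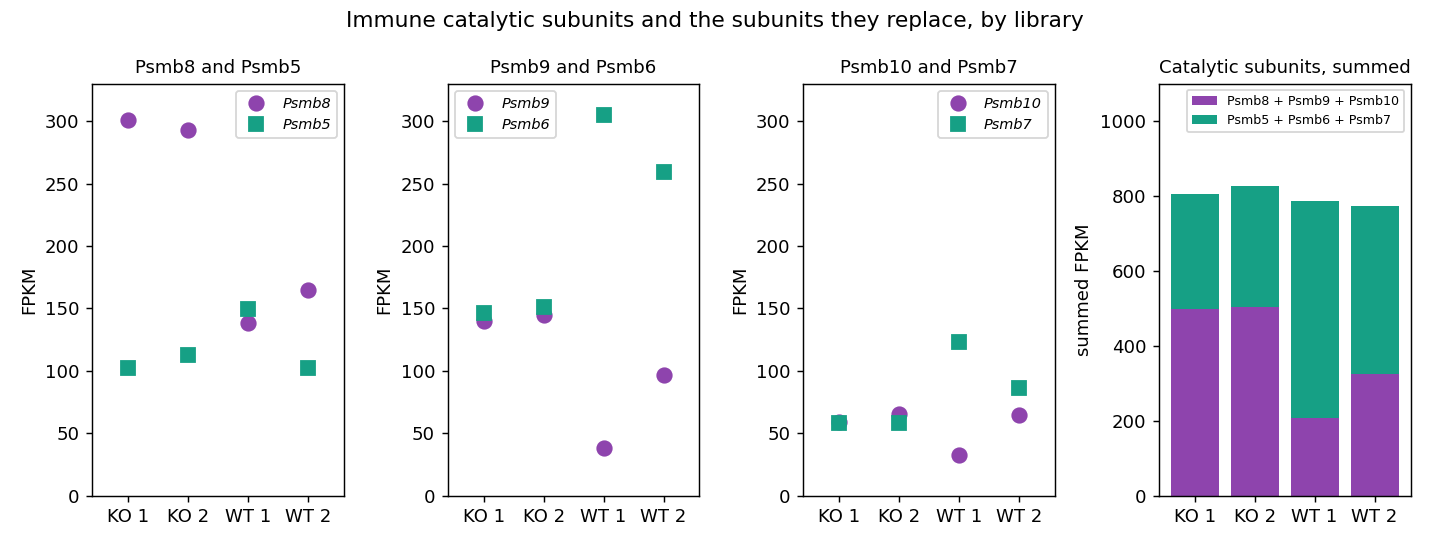
Level in FPKM (linear axis) of each immune catalytic subunit and of the subunit it replaces in the 4 libraries, KO (labelled knockout) at the left and WT at the right, 1 point per library and gene. The last panel stacks the summed FPKM of the 3 immune and the 3 constitutive catalytic genes: the totals run from 773 to 826, and the immune part is 499 and 503 in KO and 208 and 325 in WT.

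The PA28 genes lay higher in the KO libraries without passing the threshold. Psme1, the alpha chain, was at 285 and 259 FPKM in KO and at 167 and 206 FPKM in WT, a difference of 0.55 (SE 0.18; limma, adjusted p = 0.11; 95% interval 0.04 to 1.06). Psme2, the beta chain, was at 406 and 423 FPKM in KO and at 266 and 371 FPKM in WT, a difference of 0.40 (SE 0.21; limma, adjusted p = 0.25; 95% interval -0.21 to 1.001). In neither did the groups overlap. The difference of Psme2 was 0.16 without the first WT library and 0.64 without the second. Psme2 had the highest mean level over the 4 libraries of all 50 rows. Psme2b was at 22.2 and 25.4 FPKM in KO and at 10.2 and 16.1 FPKM in WT (difference 0.84; limma, adjusted p = 0.12), a difference of 0.53 without the first WT library. Reads of Psme2 and Psme2b may be shared between the copies, so both values are uncertain.

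The other activators pointed in opposite directions. Psme3, which forms the nuclear PA28 gamma ring, was at 44.9 and 43.1 FPKM in KO and at 27.6 and 17.6 FPKM in WT, a difference of 0.97 (SE 0.28; limma, adjusted p = 0.091; 95% interval 0.17 to 1.76). Psme4, the large single-chain activator of nuclear proteasomes, was at 2.00 and 2.11 FPKM in KO and at 4.56 and 4.05 FPKM in WT, a difference of -0.80 (SE 0.22; limma, adjusted p = 0.079; 95% interval -1.40 to -0.19). Neither passed, and the groups overlapped in neither. Psmf1, which encodes the PI31 inhibitor, was at 7.66 and 6.60 FPKM in KO and at 5.03 and 4.68 FPKM in WT (difference 0.47, SE 0.22; limma, adjusted p = 0.19; 95% interval -0.14 to 1.08).

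The 7 tested genes of the alpha ring, whose subunits gate the barrel, differed by -0.43 to 0.16, and none passed. The highest was Psma7, at 303 and 298 FPKM in KO and at 371 and 341 FPKM in WT. Psma4 had the lowest difference (76.2 and 80.3 FPKM in KO, 110 and 101 FPKM in WT), and Psma3 the highest (136 and 147 FPKM in KO, 146 and 110 FPKM in WT). Psma8, the alpha subunit of testis, was listed at 0.112 and 0.287 FPKM in KO and at 0 and 0.613 FPKM in WT, and was below the filter. Of the 4 structural beta genes, which carry no protease site, Psmb1 was at 215 and 212 FPKM in KO and at 205 and 194 FPKM in WT (difference 0.098), and Psmb2 at 156 and 140 FPKM in KO and at 212 and 183 FPKM in WT (difference -0.41). Psmb3 and Psmb4 differed by -0.028 and -0.40. None of the 4 passed. Psmb11, the catalytic subunit of thymic cortical epithelium, was listed at 0 in all 4 libraries.

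The base ATPases, which form the ring that unfolds substrates, all had negative differences, from -0.66 to -0.015, and none of the 6 passed. Psmc1 had the lowest, with 65.6 and 65.4 FPKM in KO and 104 and 104 FPKM in WT (difference -0.66, SE 0.16; limma, adjusted p = 0.063; 95% interval -1.09 to -0.23). Its libraries agreed closely within each group. Psmc5 had the highest level, at 93.6 and 98.5 FPKM in KO and at 136 and 96.8 FPKM in WT, where the groups overlapped. Psmc4 had a difference of -0.015, which turned to 0.064 with libraries scaled to 1 common total.

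The 11 non-ATPase cap genes differed by -0.51 to 0.31, and none passed. The highest level was that of Psmd4, a ubiquitin receptor, at 103 and 112 FPKM in KO and at 105 and 103 FPKM in WT. The lowest was that of Psmd1, a scaffold of the base, at 27.6 and 27.0 FPKM in KO and at 42.4 and 32.4 FPKM in WT. Psmd12, a lid subunit, had the lowest difference (54.2 and 50.1 FPKM in KO, 88.2 and 63.0 FPKM in WT), and Psmd11, also of the lid, the highest (61.5 and 67.4 FPKM in KO, 59.1 and 45.1 FPKM in WT). Psmd14, the deubiquitinase of the lid, was at 71.2 and 69.3 FPKM in KO, between the WT values of 79.2 and 50.5 FPKM.

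Assembly chaperones guide subunits into place and leave the finished particle or its parts. The 3 chaperones of the base, Psmd5, Psmd9 and Psmd10, lay between 5.03 and 32.7 FPKM in KO and between 6.77 and 33.1 FPKM in WT. The 4 chaperones of the core, Psmg1 to Psmg4, lay between 15.0 and 35.0 FPKM in KO and between 15.8 and 40.2 FPKM in WT. None of the 7 passed. Psmg1 had the lowest difference (-0.62, SE 0.44; limma, adjusted p = 0.35), which turned on the first WT library: it was at 15.0 and 15.3 FPKM in KO and at 35.4 and 15.8 FPKM in WT. Psmc3ip was at 12.6 and 10.8 FPKM in KO and at 13.7 and 11.4 FPKM in WT.

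**Figure D2:**
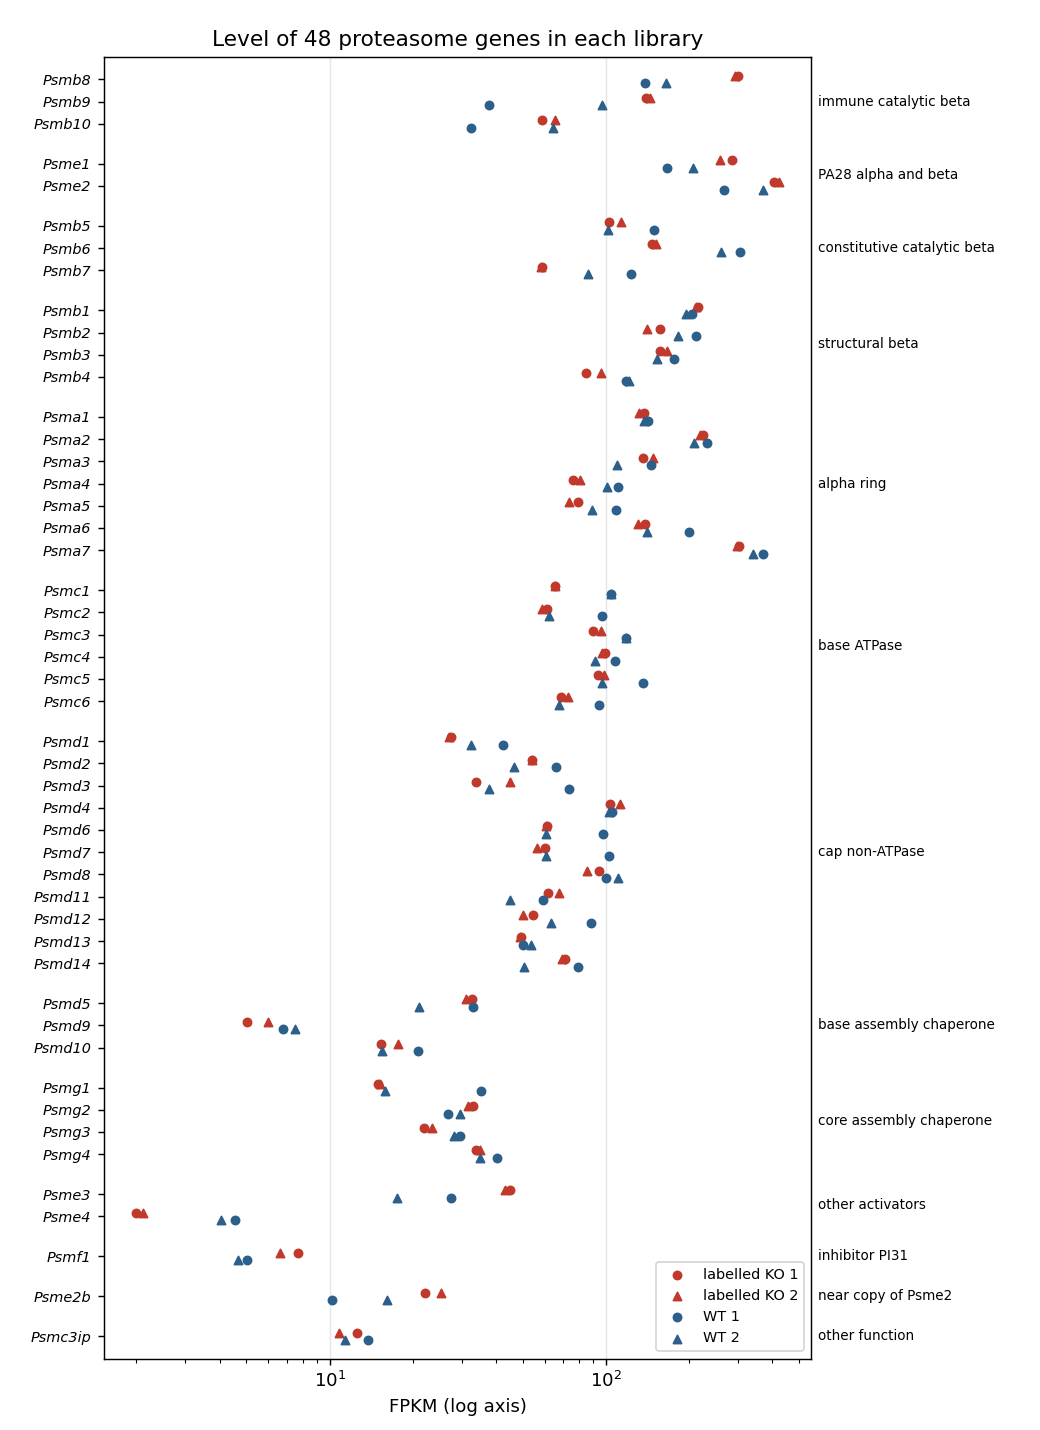
Level in FPKM (log axis) of the 48 tested proteasome genes, grouped by role as named at the right, with 1 point per library (KO, labelled knockout, in red above WT in blue; circles for replicate 1, triangles for replicate 2). The KO points lie close together in most rows, the WT points often apart, and Psmb8, Psmb6 and Psme3 are among the rows whose groups do not overlap.

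Over the whole set, 2 of the 48 tested members had an adjusted p under 0.05 by limma with Benjamini-Hochberg adjustment over 11138 genes, which is 4.17%, against 16.5% of all genes tested. Of these, 1 member rose (9.51% of all genes did) and 1 fell (6.99% did). All but 2 of the 50 rows passed the filter of 1 FPKM in at least 2 libraries. At an unadjusted p under 0.05 the members were 8: Psmb6, Psmb7, Psmb8, Psmc1, Psme1, Psme2b, Psme3 and Psme4. Of all genes tested, 39.5% had such a p, a larger share than these 8 of 48. Without either KO library 0 members and 0 genes of the whole table passed (limma; 1385 at an unadjusted p under 0.05 without the first and 1346 without the second). Without the first WT library 20 members passed, and without the second 31, in fits that hold no spread between WT libraries and in which 69.3% and 71.0% of all genes passed.

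By position of the libraries alone, 21 members (43.8%) were lower in both KO libraries than in either WT library, against 32.1% of all genes tested, and 10 (20.8%) were higher in both, against 39.3%. Groups that did not overlap in either direction made up 71.4% of all genes tested. All 21 that were lower belonged to the 43 tested rows outside the immune subunits, of which 6 were higher. Of the 5 immune subunits 4 were higher and Psmb10 overlapped. The median difference was 0.55 for the immune subunits and -0.23 for the other 43, beside 0.082 for all genes tested. The immune median was 0.40 without the first WT library and 0.91 without the second, and the other median -0.028 and -0.32.

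**Figure D3:**
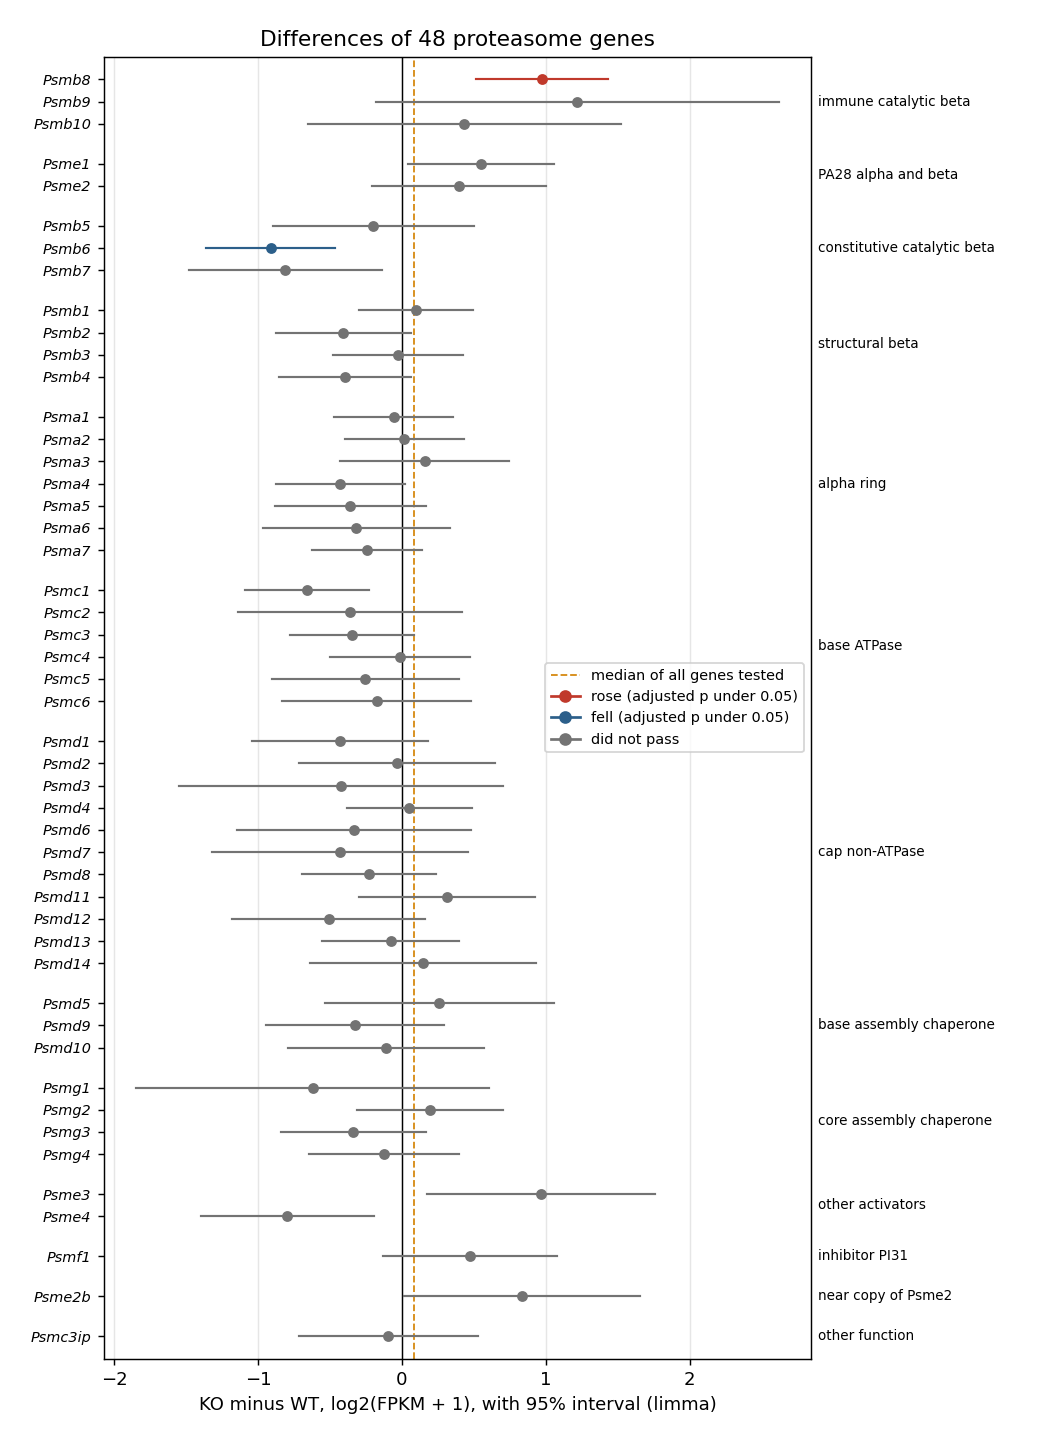
Difference KO (labelled knockout) minus WT on the log2(FPKM + 1) scale for the 48 tested proteasome genes, with the 95% interval from limma as a bar, grouped by role; the dashed line is the median of all 11138 genes tested (0.082). The interval of Psmb8 lies above 0 and that of Psmb6 below it, and both passed the adjusted threshold; the intervals of most constitutive subunits cover 0.

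Within the WT group the immune and the other genes also parted. All 5 immune subunits were higher in the second WT library than in the first, with a median log2 difference of 0.48 (second minus first). Of the other 43 tested rows 36 were higher in the first WT library, with a median of -0.24. The matching shares over all genes tested were not computed, so this split cannot be called particular to proteasome genes. Psmb9 and Psmb10 had the largest gaps of the immune set, at 2.55-fold and 1.98-fold. The KO libraries differed little: the median absolute log2 difference over the 48 members was 0.073 in KO and 0.29 in WT.

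Markers of blood cells differed between the same libraries, not all in 1 direction. The 3 pan-leukocyte markers (Ptprc, Laptm5 and Coro1a) summed to 920 and 864 FPKM in KO and to 22.7 and 352 FPKM in WT. The library with the lowest sum of these 3, the first WT library, also had the lowest level of each immune subunit. None of the 3 passed. Ptprc, which encodes CD45 of blood cells, was at 112 and 111 FPKM in KO and at 2.73 and 32.2 FPKM in WT. The T cell gene Cd3d was at 208 and 204 FPKM in KO and at 2.02 and 3.45 FPKM in WT, and the B cell gene Cd79a at 220 and 221 FPKM in KO and at 1.04 and 6.71 FPKM in WT. The neutrophil gene S100a8 was at 615 and 643 FPKM in KO and at 199 and 318 FPKM in WT. Of 6 neutrophil markers 3 rose, with sums of 1161 and 1250 FPKM in KO and 276 and 542 FPKM in WT, and 1 of them, Mmp8, was at 0 in the first WT library. Of the 6, Ngp, Camp and Retnlg were lower in the second WT library than in the first. The other 3 were higher there, as the immune subunits were. All 8 macrophage markers had negative differences, with a median of -1.68, and none passed. The groups overlapped in 7 of the 8. Their sum was 404 FPKM in the first WT library, below the 1086 and 1011 FPKM in KO, and 13690 FPKM in the second. In the first WT library, where Ptprc was at 2.73 FPKM, Psmb8 was at 138 and Psmb9 at 37.9 FPKM. Psmb10 was at 32.5, Psme1 at 167 and Psme2 at 266 FPKM there. The part of blood cells in the difference was not tested.

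All 9 luminal and all 4 basal epithelial markers had negative differences. Of the luminal markers 1 passed (11.1%) and of the basal markers 1 (25.0%), against 6.99% of all genes tested that fell. The groups overlapped in 1 basal marker. Most of the other proteasome genes also had higher levels in WT, although only Psmb6 of these 43 passed. Krt18, a luminal keratin, was at 254 and 261 FPKM in KO and at 4312 and 949 FPKM in WT (limma, adjusted p = 0.084 for Krt8 and 0.078 for Krt18). The first WT library was also the one in which 36 of the 43 other members were higher, a count without a share over all genes beside it. The macrophage gene C1qa was at 34.3 and 37.3 FPKM in KO and at 40.5 and 1254 FPKM in WT. The endothelial gene Emcn was at 2.92 and 3.34 FPKM in KO and at 19.8 and 100.04 FPKM in WT, and the fibroblast gene Col1a1 at 26.8 and 25.0 FPKM in KO and at 29.8 and 65.8 FPKM in WT. As sums, 4 basal epithelial markers were at 60.7 and 65.6 FPKM in KO and at 335 and 107 FPKM in WT, 4 endothelial markers at 21.1 and 20.5 FPKM in KO and at 28.2 and 159 FPKM in WT, and 6 fibroblast markers at 164 and 160 FPKM in KO and at 172 and 467 FPKM in WT. The part of each of these cell types in the differences was not tested.

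**Figure D4:**
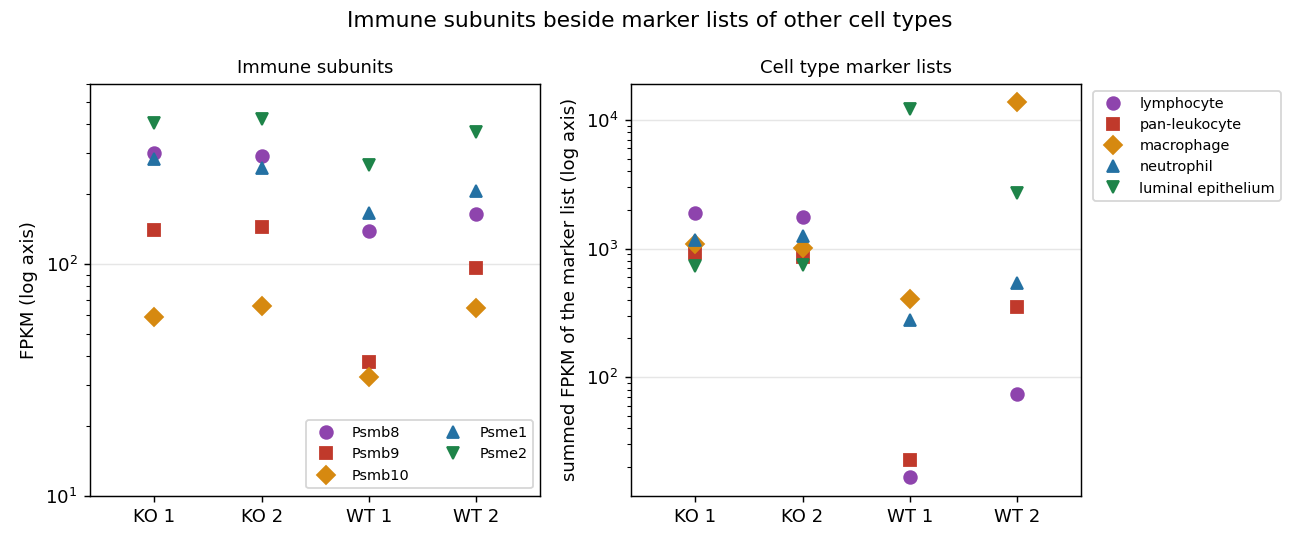
Left, level in FPKM (log axis) of the 5 immune subunits in the 4 libraries, KO (labelled knockout) at the left of WT; right, summed FPKM (log axis) of 5 marker lists in the same libraries, 1 point per library. The first WT library has the lowest level of every immune subunit and the lowest pan-leukocyte sum (22.7), and the KO libraries have the highest pan-leukocyte sums (920 and 864).

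Regulators of proteasome genes were read from a list of 19. Of these 7 rose (36.8%, against 9.51% of all genes tested) and none fell (6.99% of all genes did), with a median difference of 1.33, and 12 did not pass. Ifng, the cytokine that induces the immune subunits, was at 20.7 and 23.8 FPKM in KO and at 1.02 and 1.46 FPKM in WT (change 3.38, SE 0.24; limma, adjusted p = 0.024). It is made by T and NK cells. Markers of these cells were higher in the same libraries. Whether they account for the level of Ifng, or Ifng for that of the immune subunits, was not tested. Irf1, a transcription factor downstream of that cytokine, was at 173 and 177 FPKM in KO and at 35.7 and 63.3 FPKM in WT (change 1.86; limma, adjusted p = 0.041). Ifngr1, Jak2, Irf9, Nlrc5 and Stat3 rose by 3.26, 1.98, 1.54, 1.42 and 1.33. The call of Stat3 ended with median centring (limma, adjusted p = 0.052) and with 1 common total (adjusted p = 0.051). Nfe2l1, which drives the constitutive subunit genes when proteasome activity is short, was at 9.01 and 10.03 FPKM in KO and at 43.1 and 10.4 FPKM in WT, so that the first WT library alone stood apart (limma, adjusted p = 0.33).

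In class I peptide loading, the step that uses proteasome products, 1 of 11 genes rose (9.09%, near the 9.51% of all genes tested), none fell and the median difference was 0.75. H2-K1, which shares reads with other H2 genes, was at 1619 and 1606 FPKM in KO and at 771 and 939 FPKM in WT (change 0.92; limma, adjusted p = 0.038), a call that ended with an untrended, not robust prior (adjusted p = 0.059). The peptide transporter gene Tap1 was at 47.6 and 52.5 FPKM in KO and at 9.31 and 19.6 FPKM in WT (difference 1.81; limma, adjusted p = 0.058), and Tap2 at 45.0 and 51.3 FPKM in KO and at 25.8 and 30.5 FPKM in WT (difference 0.75; limma, adjusted p = 0.077). Tapbpl, a peptide editor, differed by 1.62 (limma, adjusted p = 0.086). Of the 11 genes 7 had positive differences and 4 had negative ones, the lowest at -0.47. In RefSeq's gene order Psmb9, Tap1, Psmb8 and Tap2 follow each other on chromosome 17, and Psme1 and Psme2 lie near Irf9 on chromosome 14.

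Of the 17 tested genes for other subunits, assembly factors and enzymes bound to the proteasome, 0 passed (limma; 3 at an unadjusted p under 0.05), with a median of 0.081. Pomp, the maturation factor of the core, was at 163 and 167 FPKM in KO and at 249 and 258 FPKM in WT (difference -0.62, SE 0.14; limma, adjusted p = 0.059, and 0.048 with a filter at 5 FPKM). Zfand5, Ube3a and Fbxo7 differed by -0.63, 0.72 and 0.63 without passing. In ubiquitin supply and conjugation 2 of 13 tested genes rose (15.4%, against 9.51% of all genes tested) and none fell, with a median of 0.18. Ubb, a polyubiquitin gene, was at 2529 and 2477 FPKM in KO and at 1531 and 1547 FPKM in WT (change 0.70; limma, adjusted p = 0.036), a call that also ended with that prior (adjusted p = 0.073). Rps27a and Ube2r2 differed by 0.44 and -0.50 without passing.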

How the data were processed

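RNA-seq libraries of sorted YFP+ tumor cells were made with a low-input Clontech SMARTer kit, per the labels' protocols (2 libraries per group). The submitters' processing notes name the build mm9. The aligner, counting tool and annotation were not given in the sources used here. Each library has 1 column in the deposited table, which holds 1 FPKM value per gene; its header names no unit, which was read from the values (columns of about 401786 to 449838 in total, not whole). Read totals are not given. Steps between values under 0.1 FPKM put the depth relative to the second KO library at 0.928 for the first KO library and at 1.03 and 0.849 for the WT libraries. At these depths 50.4 to 60.5% of such genes had ratios made of whole numbers no larger than 6 (tolerance 0.2%). The median of that share over all depths tried was 0.713 to 0.845%. Counts were not rebuilt.

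Of 24043 rows, 92 spike-in rows were all at 0 and left out, and 27 rows with dates as symbols were kept but not named. The 11138 genes that reached 1 FPKM in 2 or more libraries entered a limma 3.58.1 fit (R 4.3.3) of log2(FPKM + 1). Its prior was trended and robust, with group as the only term and Benjamini-Hochberg adjustment at 0.05. With the pseudocount of 1, changes of low genes are understated. With 2 libraries per group, adjusted p-values lean on spread shared over genes. The code was first checked on simulated data. Values are given for replicates 1 and 2 in that order.

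The members and gene lists were chosen with earlier results of these data known. Named genes were the immune subunits, the subunits they replace, the other activators and the inhibitor, members past the threshold, the extremes of each role, and in each list of other genes those past the threshold and up to 4 of lowest p. Nfe2l1, Psme2b and Mmp8 lie outside this rule and were added after their values were seen. Some genes counted in the lists are not reported here by name. Emr1 stood for Adgre1 among the markers, and Trbc2 and Ly6g were not analysed here. Promoter windows and gene order are from RefSeq (GRCm38.p6), another build than the files', so they were matched by symbol (42 of 50 members). Alternatives were pseudocounts, filters, scalings, the variance prior, a replicate block and leaving out each library.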

Additional observations from a re-analysis of the deposited data

How the results depend on the processing

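The 2 calls among members held with a pseudocount of 0.1, a filter at 5 FPKM, median centring and quantile normalization, and ended with other settings. Without a filter 2 genes of the table and 0 members passed (limma; immune 0, other 0, higher 0, lower 0). With an untrended, not robust prior 0 members passed, with adjusted p = 0.052 for Psmb8 and 0.056 for Psmb6 (limma), and 1830 genes. Rescaled to a common total, 1 member passed (other members 0, lower 0). With the replicate number as a block, 501 genes and 0 members passed (limma, adjusted p = 0.076 for Psmb8 and 0.085 for Psmb6); the numbers are not stated to pair the libraries, and deviations of same-numbered libraries correlated at -0.062.

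Leaving out 1 library gave 0 to 7912 genes (0 without either KO library, so those fits say nothing of single calls), 0 to 31 members (0 to 10 higher, 0 to 23 lower), 0 to 5 immune and 0 to 26 other members. The immune median ran from 0.40 to 0.91, and Kdm1a from -1.25 to -0.087. Small differences changed sign: median centring gave -0.079 for Psma2 and -0.043 for Psmd4, quantile normalization 0.029 for Psmb3, and a common total 0.024 for Psma1, 0.064 for Psmc4, 0.05 for Psmb3, 0.000853 for Psmd13 and 0.044 for Psmd2. Leaving out 1 library they ran from -0.063 to 0.094 for Psma2, -0.13 to 0.073 for Psmb3, -0.14 to 0.10 for Psmc4, -0.0052 to 0.11 for Psmd4, -0.22 to 0.032 for Psmc3ip, -0.32 to 0.094 for Psmd10, -0.41 to 0.063 for Psmc6, -0.47 to 0.074 for Psmb5, -0.050 to 0.91 for Psmb10, -0.28 to 0.21 for Psmd2, -0.89 to 0.046 for Psmd3, -0.67 to 0.0066 for Psmd6, -0.046 to 0.36 for Psma3, -0.052 to 0.57 for Psmd5 and -0.17 to 0.47 for Psmd14. The cause of each change was not tested. Without a filter the calls of the regulator, class I loading and ubiquitin genes named were lost too; marker genes were not refitted. FPKM without read totals gives no counting error for single values.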
